A study of Mus musculus with 4 samples.

Results

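The ferritin chain genes, Ftl1 for the light chain and Fth1 for the heavy chain, and the pseudogene copies that the annotation names were examined in transketolase chromatin immunoprecipitation with sequencing (ChIP-seq) of mouse retina. Members were the listed peaks assigned to Ftl1 or Fth1, together with peaks lying on a named copy. They numbered 2 of 30791 peaks in the list of induced retinas and 7 of 18267 in the list of control retinas, or 9 of 49058 in all. The members were chosen from the peak lists themselves, so their values are a description and carry no test.

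Retinas came from Tet-opsin-VEGFA mice, a model of age-related macular degeneration that overexpresses VEGF. The groups were induced Tet-opsin-VEGFA retinas and noninduced Tet-opsin-VEGFA retinas, the control, and the transgene was carried by both. The transgene name refers to opsin, whose promoter is active in photoreceptors. The series text gives 2 retinas per condition, and each condition gave 1 ChIP library and 1 input library; the inducing agent, its duration and the age of the animals are not given in the sources used here. Tissue was fixed with methanol and precipitated with an antibody to transketolase, which works in the pentose phosphate pathway.

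Ferritin is the hollow protein shell in which cells store iron. The heavy chain oxidises iron as it enters, and the light chain favours growth of the mineral core. Ferritin synthesis is controlled largely at translation, where iron regulatory proteins bind the messenger RNAs of both chains, and ferritin messenger RNA is abundant in most tissues. Iron is needed in the retina for the visual cycle and for photoreceptor metabolism.

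A peak here is a stretch of the genome (mouse build mm10, GRCm38) where the ChIP library held more tags than background, as the authors called it against the input of its own condition. Each peak has a tag count, and a fold, −log10 p and false discovery rate that are the authors' own. The induced list had a median of 11 tags and 8.59-fold per peak and a minimum of 10 tags. The control list had a median of 18 tags and 5.86-fold and a minimum of 14 tags. False discovery rates reached 0.64% in the induced list and 6.08% in the control list. Total depth was unknown, so tags and folds were not compared in size between the lists, and a site without a listed peak may still have been occupied.

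No induced peak touched the 250 bases before the start of the Ftl1 transcript or of the coding Fth1 transcript, and a control peak covered the whole of each stretch. These bases, from RefSeq on GRCm38.p6, are shown because a peak was listed over them in the control list alone. Ftl1 lies on the minus strand (chr7:45459887-45460136) and Fth1 on the plus strand (chr19:9982396-9982645), both read 5′ to 3′ towards the start. An annotated noncoding Fth1 transcript starts further upstream, so the Fth1 stretch lies inside the annotated gene. Capitals mark matches on either strand to CCAAT or GGGCGG.
Ftl1 promoter: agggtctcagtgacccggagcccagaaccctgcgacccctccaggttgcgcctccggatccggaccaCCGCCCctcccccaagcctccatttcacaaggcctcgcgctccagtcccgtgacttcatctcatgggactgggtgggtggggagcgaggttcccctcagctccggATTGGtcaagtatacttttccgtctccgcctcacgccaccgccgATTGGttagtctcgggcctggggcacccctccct
Fth1 promoter: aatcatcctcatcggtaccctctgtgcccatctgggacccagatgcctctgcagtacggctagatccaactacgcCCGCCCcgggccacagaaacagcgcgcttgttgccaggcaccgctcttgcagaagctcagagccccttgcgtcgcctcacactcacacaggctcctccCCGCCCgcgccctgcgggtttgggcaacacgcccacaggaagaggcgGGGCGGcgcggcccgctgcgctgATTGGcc
CCAAT is the letters of the CCAAT box and GGGCGG those of a GC box. Ftl1 held 2 CCAAT matches, with their first bases 78 and 34 bases before the start, and 1 GGGCGG match at 183 bases. Fth1 held 1 CCAAT match at 7 bases and 3 GGGCGG matches at 175, 77 and 30 bases before the start. Among all 32851 promoter windows of 250 bases, 33.8% held CCAAT and 32.7% held GGGCGG. No match to TGACNNNGC, the letters of an antioxidant response element, was found in either window, against 10.2% of all windows. TATAA, the letters of a TATA box, was found 18 bases after the annotated start of Ftl1 and 27 bases after the coding start of Fth1, and 24.9% of windows extended by the first 50 transcribed bases held it. No match overlapped another. GC content was 65.2% in the Ftl1 window and 66.8% in the Fth1 window, against a median of 52.4%.

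Ftl1 was listed in both conditions, but at different positions within the gene. Ftl1 lies on chromosome 7 from 45457944 to 45459886, between Gys1 and Bax. The induced list held 1 peak there (chr7:45458926-45459261), with 10 tags (95% exact Poisson interval 4.80 to 18.4) at 10.74-fold, a −log10 p of 7.03 and a false discovery rate of 0.1%. The control list held 2. That at the gene's start (chr7:45459324-45460149) had 41 tags (29.4 to 55.6) at 16.62-fold, a −log10 p of 19.5 and a false discovery rate listed as 0. The other, at the gene's end (chr7:45457944-45458748), had 23 tags (14.6 to 34.5) at 9.77-fold, a −log10 p of 7.06 and a false discovery rate of 1.7%. The induced peak was at the lowest tag count of its list, while the start-site peak of the control list was among the highest of its own. Poisson intervals cover counting error only.

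The induced Ftl1 peak lay wholly in the 575 bp between the control peaks. It ended 62 bp from the start-site peak and began 177 bp from the gene-end peak, and overlapped neither. Its summit lay 793 bp downstream of the gene's start. The control summits lay 154 bp and 1687 bp downstream. All 3 peaks were classed by the authors as promoter peaks, with centres 793 bp downstream in the induced list and 150 and 1541 bp downstream in the control list. The class covered centres up to 2 kb from a start site, and the Ftl1 gene is 1943 bp long, so a peak at either end of the gene fell in it. Peaks covered 17.3% of the gene in the induced list and 70.4% in the control list. The induced peak was short, at 336 bp against a median of 551 bp in its list, and the control peaks spanned 826 and 805 bp against a median of 712 bp. No peak of either list touched Gys1 or Bax.

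**Figure D1:**
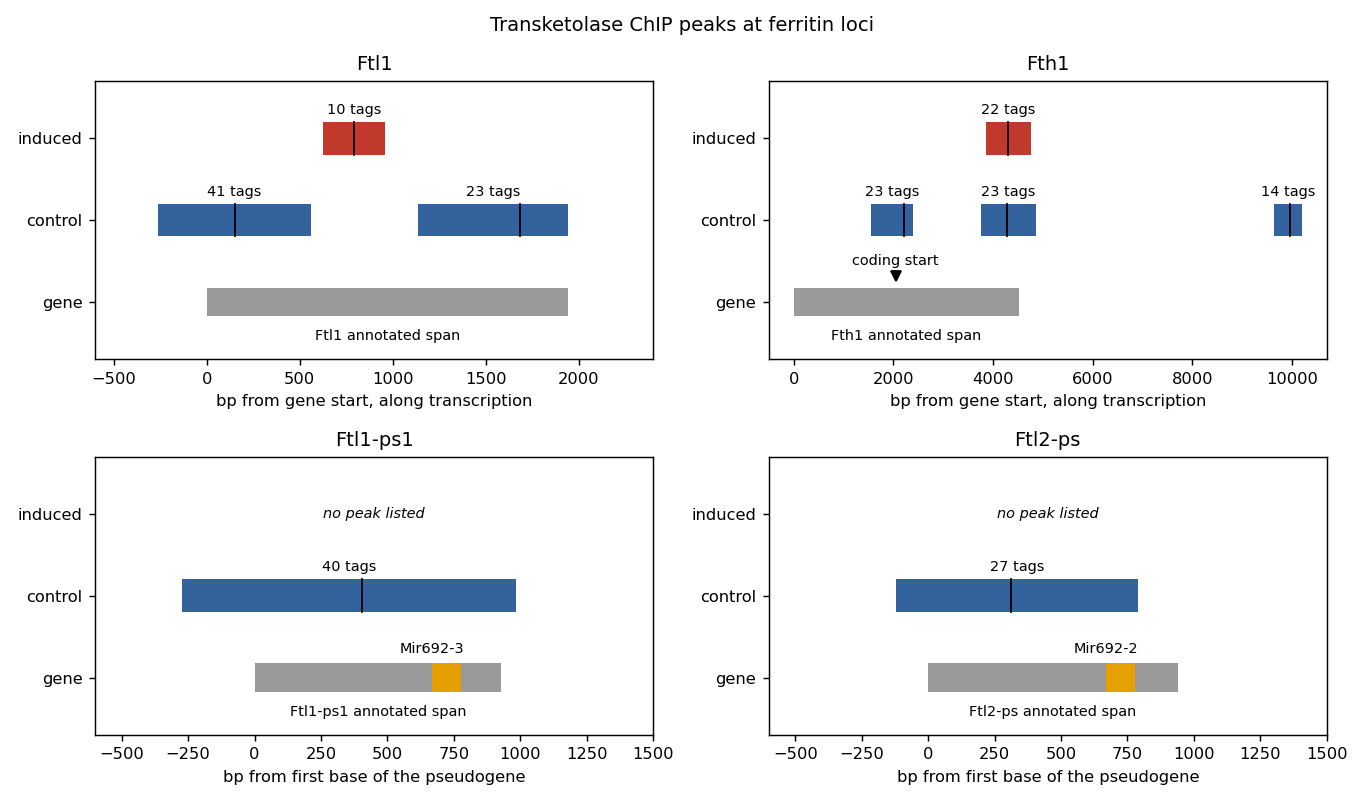
Peaks at Ftl1, Fth1, Ftl1-ps1 and Ftl2-ps, as bars along the distance in bp from the start of each locus, with induced peaks above control peaks and black lines at the summits. The induced peak of Ftl1 (10 tags) sits in the gap between control peaks of 41 and 23 tags, the Fth1 exon peaks of 22 and 23 tags coincide, and both pseudogenes hold a control peak alone.

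Fth1 was the chain gene with a peak at the same place in both lists. It lies on chromosome 19 from 9980600 to 9985111 on the plus strand. Its coding transcript starts 2046 bp downstream of an annotated noncoding transcript. The induced list held 1 peak, classed as exon (chr19:9984457-9985354), with 22 tags (13.8 to 33.3) at 16.05-fold, a −log10 p of 10.3 and a false discovery rate listed as 0. The control list held an exon peak there too (chr19:9984349-9985458), with 23 tags (14.6 to 34.5) at 8.31-fold, a −log10 p of 4.71 and a false discovery rate of 3.94%. The induced peak lay inside the control peak over all of its 898 bp, and the summits were 13 bp apart.

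The Fth1 exon peaks ran past the gene's end, by 243 bp in the induced list and 347 bp in the control list. Best1, which encodes the bestrophin-1 anion channel of the retinal pigment epithelium, has its nearest annotated end 60 bp beyond Fth1. The induced peak reached 183 bp into Best1 and the control peak 287 bp. Which of the genes the tags there belong to was not tested.

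A start-site peak of Fth1 was listed in the control condition alone (chr19:9982157-9983002), with 23 tags at 8.31-fold, a −log10 p of 6.67 and a false discovery rate of 1.73%. Its centre lay 66 bp upstream and its summit 160 bp downstream of the coding start. The nearest induced peak was the exon peak, 1454 bp away. The third control peak assigned to Fth1 (chr19:9990236-9990810) had 14 tags, the minimum of its list, at 5.86-fold and a false discovery rate of 5.88%. It was classed as intergenic, 7877 bp from the coding start, and by position it lay inside Best1. Peaks covered 14.5% of Fth1 in the induced list and 35.7% in the control list.

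The chain genes held a promoter peak at 1 of 2 (Ftl1) in the induced list, where 7.27% of 26219 RefSeq genes had one, and at both in the control list, where 6.47% did. An exon peak was assigned to Fth1 in each list, against 3.31% of genes in the induced and 1.43% in the control list. Of the ferritin peaks, 1 of 2 induced peaks overlapped a control peak and 1 of 7 control peaks overlapped an induced peak. Over all peaks the shares were 1.63% of induced and 2.73% of control peaks. Since the genes were chosen from these lists, nothing is read from those counts.

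Pseudogene copies carried peaks at 0 of the 5 named copies in the induced list and at 2 of 5 in the control list. Over all 10434 annotated pseudogenes, 13.2% were touched by an induced peak and 2.6% by a control peak. Both copies with a peak were light-chain copies, Ftl1-ps1 and Ftl2-ps. The control peak on Ftl1-ps1 (chr13:74406122-74407380) had 40 tags (28.6 to 54.5) at 11.24-fold, a −log10 p of 12.7 and a false discovery rate listed as 0, and spanned the whole 929 bp of the pseudogene. The control peak on Ftl2-ps (chr4:125503958-125504869) had 27 tags (17.8 to 39.3) at 7.82-fold, a −log10 p of 8.37 and a false discovery rate of 1.99%, and covered 84.1% of it. Ftl2-ps lies within the annotated span of the glutamate receptor gene Grik3. The nearest induced peaks lay 11213 bp and 27882 bp from these control peaks and had 10 and 12 tags. No peak touched the third light-chain copy, Ftl1-ps2, or the heavy-chain copies Fth-ps2 and Fth-ps3 in either list. Copies share sequence with their parent gene, and how reads that align to several places were handled is not given in the sources used here, and whether Ftl1 and its copies share tags was not tested.

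The authors assigned both pseudogene peaks to the microRNA genes Mir692-2 and Mir692-3, and each was listed as a promoter peak of both. In the RefSeq gene table Mir692-3 lies within Ftl1-ps1, starting at its base 669, and Mir692-2 within Ftl2-ps, starting at its base 670. Each control peak covered the whole hairpin gene it contained. The mature sequence and the Mir692-2 hairpin are given because the pseudogene peaks were assigned to these genes. The Mir692-1 hairpin is given for comparison, as the member of the family that no peak touched. The Mir692-3 hairpin is not shown. Sequences are from RefSeq on GRCm38.p6, with capitals for the seed (bases 2 to 8) in the mature microRNA and for the mature part in the hairpins.
mmu-miR-692: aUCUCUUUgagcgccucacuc
Mir692-2 hairpin: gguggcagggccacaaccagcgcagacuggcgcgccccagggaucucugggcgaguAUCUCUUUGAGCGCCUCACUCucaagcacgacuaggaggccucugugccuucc
Mir692-1 hairpin: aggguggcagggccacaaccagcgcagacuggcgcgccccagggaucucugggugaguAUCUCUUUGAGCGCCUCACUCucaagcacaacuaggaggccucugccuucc
The mature sequence lies at chr4:125504805-125504825 and chr13:74407121-74407141 on the plus strand, and at chr17:6895259-6895279 on the minus strand, so the 3 genes share 1 seed. The Mir692-2 hairpin (chr4:125504749-125504857, plus strand) and the Mir692-1 hairpin (chr17:6895229-6895337, minus strand) were identical at 105 of 107 aligned bases, with 4 positions in gaps. No peak touched Mir692-1, and no ferritin copy is named there by the gene table. Its nearest induced and control peaks lay 66326 bp and 21216 bp away. That control peak (chr17:6872989-6874012) was assigned to Mir692-1 as intergenic, with 21 tags at 6.35-fold and a false discovery rate of 4.99%. An induced peak assigned to Mir692-2 and Mir692-3 (chr13:74418594-74419152) was intergenic, 11808 bp from the start site, with 10 tags at 8.59-fold.

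Within the lists, the induced Fth1 peak lay in the top 4.59% by fold and the induced Ftl1 peak in the top 25.8%, while the control peaks at Ftl1 and Ftl1-ps1 lay in the top 0.657% of theirs. These percentages include every peak tied at the same fold, whereas the ranks below give the best place of a tie. Of 30791 induced peaks, that of Fth1 ranked 1412 by fold and 1324 by tags, and that of Ftl1 ranked 4638 by fold at the shared minimum of tags. Of 18267 control peaks, the Ftl1 start-site peak ranked 4 by fold and 105 by tags, the Ftl1-ps1 peak 25 and 113, and the Ftl1 gene-end peak 81 and 1990. The start-site and exon peaks of Fth1 tied at rank 491 by fold, the Ftl2-ps peak ranked 923, and the peak inside Best1 ranked 8882. By −log10 p the Fth1 start-site peak ranked 1788 and the exon peak 9556. The exon peak's −log10 p of 4.71 lay below the control list's median of 4.76. Its false discovery rate of 3.94% lay above the median of 3.84%. Of the 30 control peaks of rank 25 or better by fold, ties included, 66.7% overlapped an induced peak. The Ftl1 start-site peak and the Ftl1-ps1 peak were among the 10 that did not. Tag density per peak ordered the members differently from fold. In the induced list it was 29.8 tags per kb for Ftl1 (rank 3148) and 24.5 for Fth1 (rank 7730). The median of all induced peaks was 21.0. In the control list it was 49.6 and 28.6 for the Ftl1 start-site and gene-end peaks. The Fth1 start-site and exon peaks held 27.2 and 20.7, and Ftl1-ps1, Ftl2-ps and the peak inside Best1 held 31.8, 29.6 and 24.3. The median of all control peaks was 24.9. Control density ranks ran from 39 for the Ftl1 start-site peak to 17973 for the Fth1 exon peak.

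**Figure D2:**
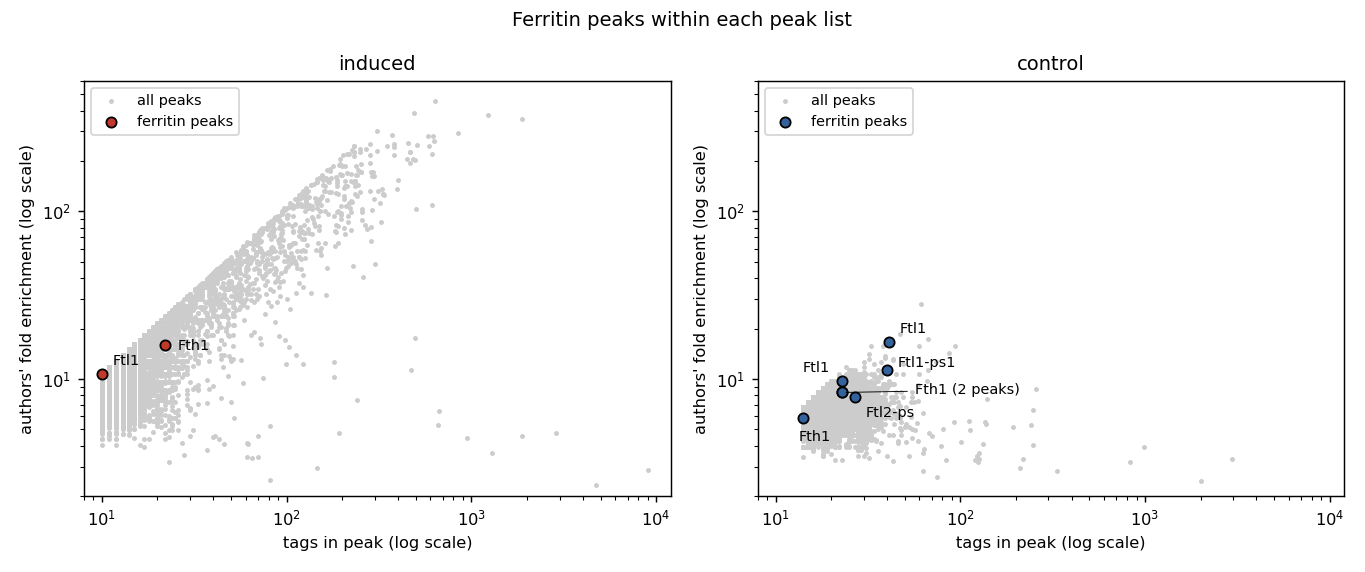
The authors' fold enrichment against tags per peak, both on log scales, for all peaks (grey) and ferritin peaks (coloured) in the induced list (left) and the control list (right). The Ftl1 start-site peak of the control list (41 tags, 16.62-fold) lies near the top of its list, and the induced Ftl1 peak (10 tags, 10.74-fold) lies at the lowest tag count.

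No peak of either list overlapped the other members of the ferritin family. These were Ftmt, the mitochondrial ferritin, Ftdc1, Ftdc2 and the X-linked Fthl17 genes with their copies, 12 loci in all. Over all RefSeq genes, without regard to length, 30.1% were overlapped by an induced peak and 22.7% by a control peak. The induced list assigned 3 intergenic peaks to Ftmt, at 22467, 75680 and 85471 bp before its start, with 10, 12 and 10 tags at 7.52-fold, 6.82-fold and 8.59-fold. The control list assigned none to it.

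Genes that handle iron were compared with all genes over a list of 55, Ftmt included, covering uptake, export, heme, iron-sulfur clusters, iron sensing and iron-dependent lipid peroxidation. Promoter peaks were assigned to 2 of 55 (3.64%) in the induced list, against 7.27% of all genes, and to 7 of 55 (12.7%) in the control list, against 6.47%. Exon peaks were assigned to 5 of 55 (9.09%) in the induced list, against 3.31%, and to 1 of 55 (1.82%) in the control list, against 1.43%. Peaks of any class were assigned to 52.7% in the induced list, against 45.4% of all genes, and to 38.2% in the control list, against 34.7%. The median fold of the list's promoter peaks was 44.3 over 2 induced peaks, against 8.77 over all induced promoter peaks, and 5.88 over 8 control peaks, against 5.86. The 2 induced peaks differed widely and are given next.

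Pcbp1 encodes an iron chaperone that delivers iron to ferritin, and it was the 1 gene of the list whose promoter or exon peaks overlapped between the 2 conditions. Its induced promoter peak (chr6:86524098-86526058) had 273 tags (241.6 to 307.4) at 78.97-fold and a −log10 p of 286.4, rank 258 by fold. A second induced peak assigned to it was upstream (chr6:86530375-86530936), with 12 tags at 6.44-fold. Its control peak (chr6:86524728-86525819) had 29 tags (19.4 to 41.6) at 5.89-fold and a −log10 p of 6.48, rank 8800. The control peak lay inside the induced promoter peak over all of its 1092 bp. The gene is 1710 bp long, and the promoter peaks covered 92.3% of it in the induced list and 63.9% in the control list. Their centres lay 1112 bp downstream of the start in the induced list and 916 bp downstream in the control list. The start is at the gene's higher coordinate, 86526189, and neither peak reached it. Both were classed as promoter peaks because that class covered centres up to 2 kb from a start site. In the induced list the promoter peak held 139.2 tags per kb, against a median of 21.0 over all induced peaks. In the control list it held 26.6, against a median of 24.9 over all control peaks.

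Iscu, the scaffold for iron-sulfur clusters, held a promoter peak in both lists, but 581 bp apart. The induced peak had 15 tags at 9.66-fold, centred 1842 bp upstream of the start, and the control peak 18 tags at 6.35-fold, centred 523 bp upstream. Ireb2 encodes iron regulatory protein 2, which represses ferritin translation when iron is low. The induced list assigned 5 peaks to it, of which 1 was an exon peak, with 11 tags at 9.65-fold and 18588 bp downstream of the start. The strongest was intergenic (chr9:54824365-54825432), 38856 bp before the start, with 56 tags (42.3 to 72.7) at 26.84-fold and a −log10 p of 40.2. The control list assigned it a promoter peak of 16 tags at 5.38-fold, centred 14 bp downstream of the start, and an intergenic peak of 18 tags at 6.84-fold, 31628 bp before it. Aco1, which encodes iron regulatory protein 1, held no promoter or exon peak in either list. The peaks assigned to Aco1 in both lists were intergenic, upstream or intron peaks. The nearest was a control intron peak 3474 bp downstream of the start, with 17 tags at 5.38-fold.

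Slc40a1 encodes ferroportin, the cellular iron exporter, and held 2 promoter peaks in the control list alone. The first had 24 tags at 7.82-fold, centred 1292 bp upstream of the start, and the other 16 tags at 5.47-fold, centred 135 bp downstream. The control list also assigned Slc40a1 an intergenic peak, 27807 bp from the start, with 23 tags at 7.82-fold. In the induced list the 2 peaks assigned to Slc40a1 were intergenic, 35314 and 44255 bp from the start, with 14 and 11 tags. Further control promoter peaks lay at the heme-degradation genes Hmox2 (25 tags, 5.29-fold) and Blvra (15 tags, 6.27-fold) and at the metalloreductase gene Steap2 (19 tags, 5.86-fold). Hmox2 also held the 1 control exon peak among the iron handling genes, with 28 tags at 5.86-fold. Induced exon peaks lay at Slc25a28, the mitochondrial iron importer mitoferrin-2 (15 tags, 15.03-fold), at Hjv, the hemojuvelin co-receptor of hepcidin control (13 tags, 9.66-fold), and at the ferritin receptor gene Scara5 and the ferrireductase gene Steap3 (10 tags and 7.52-fold each). Of the 11 genes of the list with a promoter or exon peak, 3 had one in both lists, namely Pcbp1, Iscu and Ireb2. Of all RefSeq genes with such a peak in either list, 7.05% had one in both. The 3 genes are 5.45% of the 55, against 1.18% of all RefSeq genes, and no test was made. Apart from Pcbp1, these peaks held between 10 and 15 tags in the induced list and between 15 and 28 in the control list. The control promoter peaks of Pcbp1, Ireb2 and Iscu had false discovery rates of 1.7%, 5.64% and 5.86%, in a list that reached 6.08%.

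**Figure D3:**
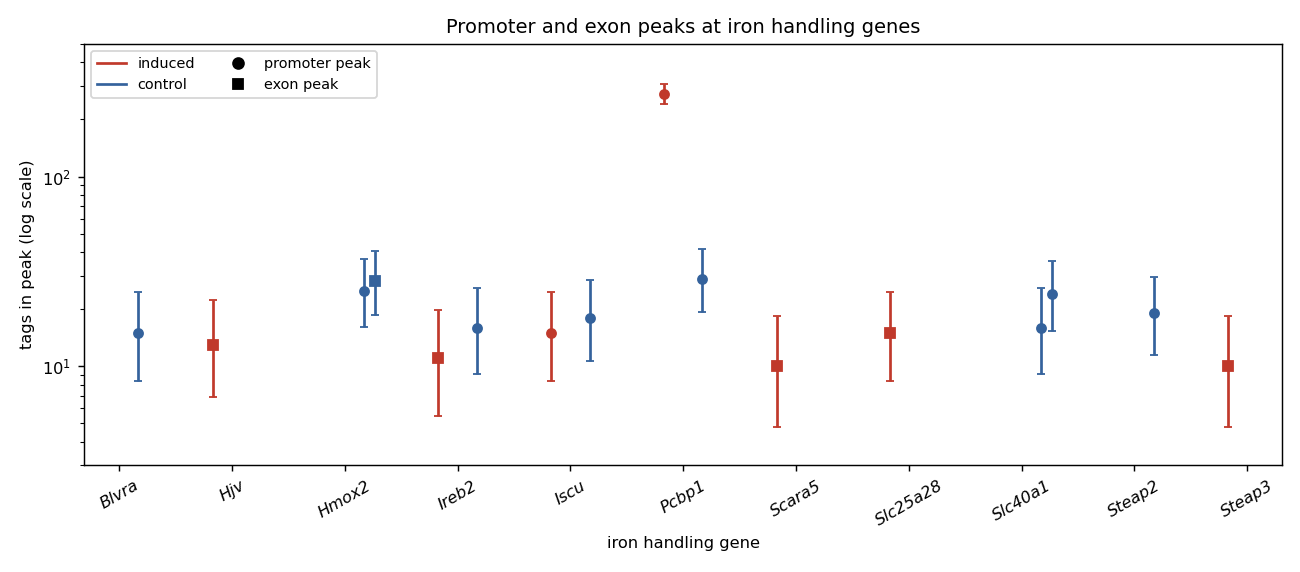
Tags in each promoter peak (circles) and exon peak (squares) at iron handling genes, on a log scale, for induced (red, left of each pair) and control (blue) lists, with 95% exact Poisson intervals as bars. The induced Pcbp1 peak, at 273 tags, stands above the other induced peaks, which hold 10 to 15 tags. Control peaks hold 15 to 29 tags, and sizes are not compared between the lists because total depth was unknown.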

How the data were processed

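Transketolase ChIP-seq of retina was deposited as 1 peak list per condition, each of 1 ChIP library against its input. Per the submitters' processing notes, Bowtie2 2.2.7 and FastQC were used with mm10 (GRCm38). The program that called the peaks is not given in the sources used here. Per the file headers, the authors gave each peak a count of tags, a fold enrichment (a ratio to background), a score of 10 times −log10 p, printed here as −log10 p, and a false discovery rate in percent. A further 3 sheets held no values.

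Peaks listed on several transcript lines were counted once. Ferritin peaks were those assigned to Ftl1 or Fth1, or overlapping either gene or a named pseudogene copy by at least 1 bp in the RefSeq gene table of GRCm38. Of 56 iron gene symbols, 55 were found; Hfe2 is an older name of Hjv. Genes named included every ferritin locus with a peak and every iron gene with a promoter or exon peak. Aco1 was named as well, as the gene of the other iron regulatory protein. Members, lists and rules were chosen with earlier results of these data known. With 1 library per condition there was no test between conditions and no p-value. Exact Poisson intervals (95%) cover counting error only. The overlap step was tested on simulated loci. Alternatives changed the peak threshold, the list length, the assignment rule and the promoter window. Values were computed with pandas 2.3.3, scipy 1.17.1 and numpy 2.4.6 in Python 3.11.15, sequences were aligned with Biopython 1.88 and plots drawn with matplotlib 3.10.9.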

Additional observations from a re-analysis of the deposited data

How the results depend on the processing

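No paired analysis was possible because there was 1 ChIP library for each condition, and for the same reason no replicate could be left out. Of 27 values recomputed under other settings, 18 stayed within their limits and 9 moved. Smaller changes in a count fell within the limits. Control ferritin peaks, 7 as reported, numbered 5 by the authors' assigned symbol alone. They numbered 6 by position alone, with at least 50% of the peak inside the locus. Control iron handling genes with a promoter peak numbered 6 rather than 7 with a centre no more than 1 kb from a start site. At a −log10 p of at least 10, which leaves fewer peaks, ferritin peaks numbered 1 in the induced list (Fth1) and 2 in the control list, the loci with a peak 1 and 2, and the loci with a peak in both lists 0. The iron handling genes with a promoter peak then numbered 1 in the induced list (Pcbp1) and 0 in the control list. By the authors' assigned symbol alone, the control loci numbered 2, since the pseudogene peaks were assigned to microRNA genes. Counting a centre no more than 1 kb from a start site, the induced iron handling count was 0, as Pcbp1 and Iscu were centred further away. The highest fold at a ferritin locus, 16.05 in the induced and 16.62 in the control list, was the same under both other assignment rules. Positions with the fewest tags, such as the induced Ftl1 peak, carry the widest relative counting error.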
